A study of Saccharomyces cerevisiae with 49 samples.

Results

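Transcripts for storage carbohydrates and for fatty acid oxidation were compared between 3 samples at phase angles of 407.97 to 423.27 degrees (15.75 to 15.92 h), called the earlier samples, and 3 samples at 438.58 to 453.89 degrees (16.08 to 16.25 h), called the later samples. These 6 samples are part of a series of 49 from a culture of the haploid yeast Saccharomyces cerevisiae, strain CEN.PK113-7D (MATa), which oscillated with a period of about 4 h while it was fed continuously with a medium of glucose, ammonium sulfate, minerals and a little yeast extract. A sample was taken every 5 min and each was hybridized to 1 Affymetrix Yeast Genome 2.0 array. All samples of both groups share strain, medium, pH and temperature and differ by their time, and the labels do not say which event defines the phase angle. All come from a single culture in succession, and the p-values thus reflect variation among neighbouring time points, not among cultures.

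The sample at 430.93 degrees lies between the groups and is given as a value without a test. For a reference level, the 7 samples at 307.04 to 354.23 degrees are used, called here the samples before 360 degrees. The 6 samples that followed them lay at 362.04 to 400.31 degrees. Between 354.23 and 476.85 degrees, the mean signals of the trehalose, glycogen and fatty acid oxidation lists had their minimum there. The comparison covers part of their return. ANT1 and FAT1, of the fatty acid oxidation list, took other courses. Their median signals at 362.04 to 400.31 degrees were 3618 and 2045, against 3330 and 1789 before. Signals are probe-set intensities with each array scaled to a common median of 1891. The arrays of the earlier samples were the brightest as deposited, with medians of 2360.0 to 2582.3, against 1527.2 to 2161.0 for the later samples, so this scaling bears on small differences. Differences are on the log2 scale, each tested with limma over 5469 probe sets (5427 genes), with an adjusted p under 0.05 taken as a call. "Rose" and "fell" refer to such calls.

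Trehalose and glycogen are the storage carbohydrates of yeast: a disaccharide that also protects proteins and membranes, and a branched glucose polymer. Cells make both when growth slows and break them down when growth resumes. Yeast oxidizes fatty acids in the peroxisome alone, where an oxidase, a multifunctional enzyme and a thiolase shorten the acyl chain and release acetyl-CoA, and catalase removes the hydrogen peroxide that the oxidase makes. Acetyl-CoA leaves as carnitine ester or enters the glyoxylate cycle. Genes of fatty acid oxidation are known to be repressed by glucose, to need the kinase Snf1 and the activator Adr1, and to be induced by oleate through Oaf1 and Pip2, and many storage and stress genes are targets of Msn2 and Msn4.

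Storage carbohydrate genes rose about 2-fold between the groups from a level that had already climbed, whereas most enzymes of fatty acid oxidation rose from near their lowest level by far larger factors. Of 25 genes for trehalose and glycogen, 22 rose and 0 fell, against a background of 32.4% of all probe sets that rose and 28.3% that fell. Of 22 genes of fatty acid oxidation, 18 rose and 0 fell, 15 of them by at least 2-fold and 10 by at least 8-fold, where 7.19% of all probe sets rose by at least 2-fold. At an unadjusted limma p under 0.05 no member of these lists was lower either, and 22 and 18 were higher. The median log2 difference was 1.06 for trehalose genes, 1.02 for glycogen genes and 2.69 for fatty acid oxidation genes, against 0.06 over all probe sets.

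Across the array, 1771 probe sets rose and 1549 fell, 60.7% in all, so 53.3% of the calls were rises, and 10.3% fell by at least 2-fold. With the values as deposited 459 rose and 2270 fell, a share of 16.8%, and the median over all probe sets was -0.37. The medians of the 3 lists stayed above 0 there, at 0.63, 0.59 and 2.26. With quantile normalization they were 0.93, 0.85 and 2.59, and 52.9% of the calls were rises.

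**Figure D1:**
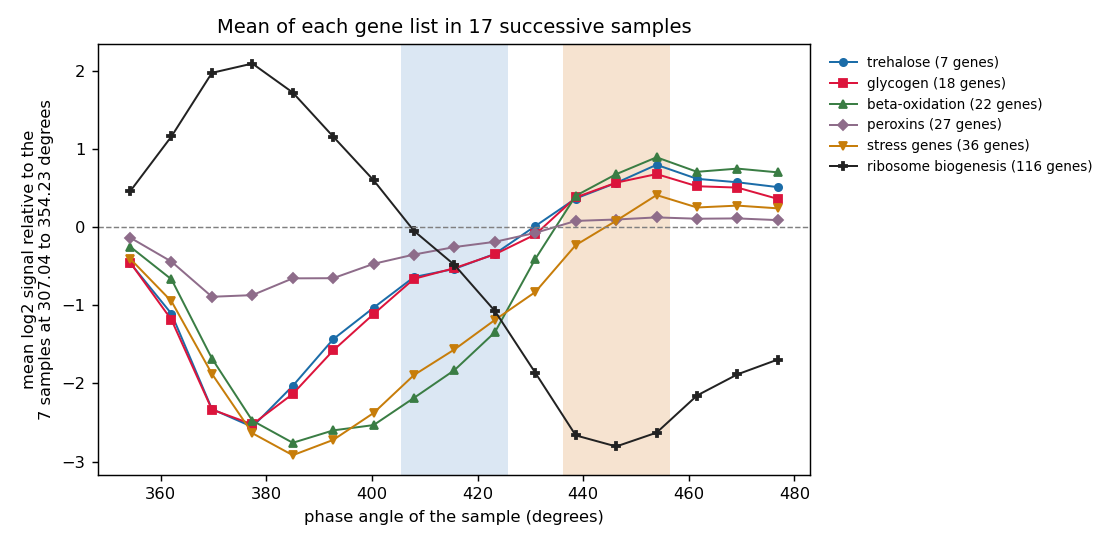
Mean log2 signal of 6 gene lists in 17 successive samples, relative to the mean of the 7 samples at 307.04 to 354.23 degrees (dashed line), against phase angle in degrees. Blue shading marks the earlier and orange shading the later samples. The trehalose and glycogen lines turn upward from 377.35 degrees, the fatty acid oxidation line stays near its lowest level until 400.31 degrees and rises most steeply between 423.27 and 438.58 degrees, and the ribosome biogenesis line crosses them downward.

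The 2 groups of genes left their low levels at different times. Relative to the samples before 360 degrees, the mean log2 signal of the 7 trehalose genes was lowest at 377.35 degrees with -2.56. It had come back to -1.03 at 400.31 degrees, -0.34 at 423.27 degrees and 0.02 at 430.93 degrees, and reached 0.80 at 453.89 degrees. The 18 glycogen genes followed with -2.52, -1.11, -0.35, -0.09 and 0.68 at the same 5 samples.

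For the 22 genes of fatty acid oxidation the mean was lowest at 385 degrees, with -2.76, and still stood at -2.53 at 400.31 degrees and at -1.34 at 423.27 degrees. It then moved to -0.40 in the sample between the groups and to 0.41 at 438.58 degrees, a step of 5 min each, and was highest at 453.89 degrees with 0.90. In the earlier samples the trehalose and glycogen genes were already a median 4.32-fold and 4.16-fold above the lowest of the samples at 362.04 to 400.31 degrees. For the fatty acid oxidation genes this factor was 2.13.

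Among the enzymes that make trehalose, TPS1, trehalose-6-phosphate synthase, had signals of 6429, 7010.4 and 8722 in the earlier samples, 10002 in the sample between, and 12783, 13267 and 18573 in the later samples. Its groups did not overlap and differed by 1.00 (SE 0.18, limma adjusted p = 0.00402). TPS2, trehalose-6-phosphate phosphatase, had 4787, 5275 and 5969.8 in the earlier and 11309.7, 13695 and 16715 in the later samples, a difference of 1.37 (SE 0.16, adjusted p = 0.00117). TSL1, a regulatory subunit of the synthase complex, went from 5076, 6058 and 7193 to 12699, 14749 and 20238, a difference of 1.37 (SE 0.20, adjusted p = 0.00204). For each of these 3 genes every later sample lay above the highest of the samples before 360 degrees, at 11143, 9692 and 10455. TPS3, the other regulatory subunit, rose by 0.72 (SE 0.11, adjusted p = 0.00237).

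Genes that break trehalose down rose beside those that make it. ATH1, the acid trehalase, had signals of 2581, 2958 and 3436 in the earlier samples, 5106 between and 6516, 7855 and 8032 in the later samples, a 2.5-fold difference (log2 1.32, SE 0.14, adjusted p = 0.0011). NTH2, a neutral trehalase, had 1865, 1783 and 1949 and then 3513, 3923 and 4249, which is 2.08-fold, and NTH1, the other neutral trehalase, differed 1.68-fold. Neither ATH1 nor NTH1 was called against the samples before 360 degrees (adjusted p = 0.0834 and 0.0835).

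**Figure D2:**
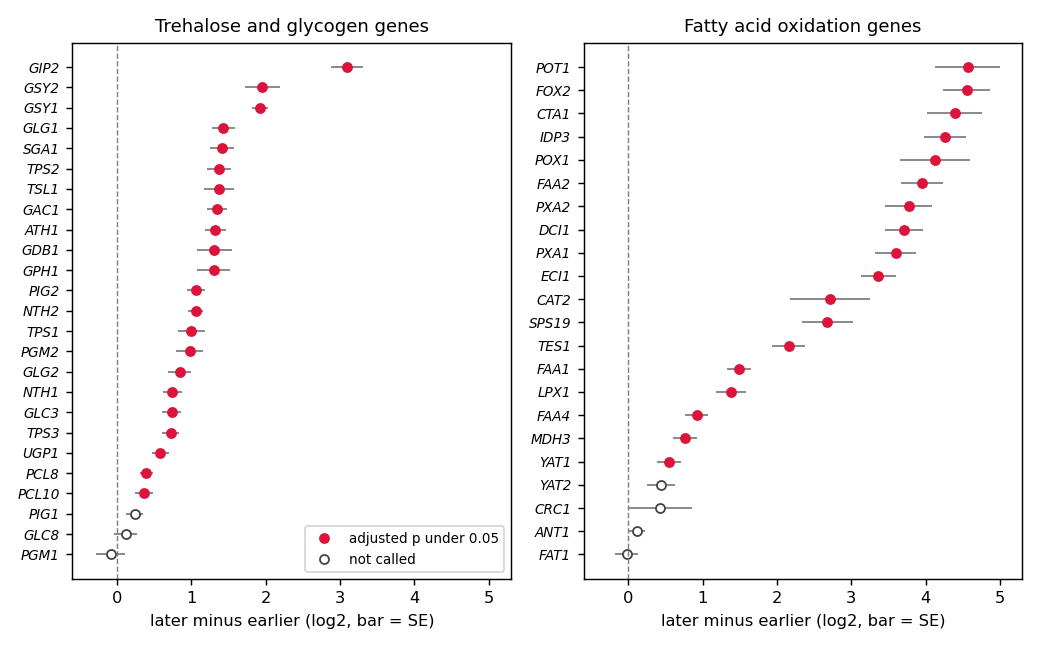
Log2 difference between later and earlier samples for 25 trehalose and glycogen genes (left) and 22 fatty acid oxidation genes (right). Points are estimates from 3 samples a group, bars are standard errors, filled points are called at an adjusted p under 0.05 and open points are not. GIP2 stands furthest right among the storage genes at 3.10, and 10 fatty acid oxidation genes lie above it.

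Glycogen genes rose in 15 of 18 cases. GIP2, a regulatory subunit of the Glc7 phosphatase, which activates glycogen synthase, had signals of 770.2, 857 and 901 in the earlier samples, 1961 between, and 5168, 7485 and 9597 in the later samples. It differed 8.55-fold (log2 3.10, SE 0.22, adjusted p = 0.000559), and its later samples reached past the highest sample before 360 degrees, at 5441, in 2 of 3 cases. GSY2, the main glycogen synthase, went from 1716, 1914 and 2499 to 5797, 7901 and 10394 (log2 1.95, SE 0.24, adjusted p = 0.0012). GSY1, the other glycogen synthase, had 1258, 1266 and 1482 and then 4701, 5531 and 4942 (1.92, SE 0.11, adjusted p = 0.000527). GSY1 was the member that most exceeded its level before 360 degrees, where its highest signal was 2025, and it had fallen back to 2366 at 476.85 degrees. GLG1, a glycogenin that primes the polymer, differed by 1.43 (SE 0.15, adjusted p = 0.0011).

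The enzymes that degrade glycogen rose as well. GPH1, glycogen phosphorylase, had signals of 5512, 7049.7 and 9192 in the earlier samples, 9873 between, and 14404, 17307 and 21587 in the later samples, a 2.47-fold difference (SE 0.22 on the log2 scale, adjusted p = 0.00314). GDB1, the debranching enzyme, differed 2.48-fold and SGA1, a glucoamylase known from sporulating cells, 2.67-fold. GPH1 was listed at 684 at 385 degrees, and its earlier samples were already 10.4-fold above that.

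Other members of the glycogen list supply its glucose units. PGM2, the major phosphoglucomutase, had 7082, 8456 and 10004 in the earlier and 13959, 16223 and 20109.8 in the later samples, a 1.97-fold difference (adjusted p = 0.00407), and UGP1, UDP-glucose pyrophosphorylase, differed 1.5-fold. The minor phosphoglucomutase PGM1 read 1215, 1499 and 1607 and then 1693, 1398 and 1035, so its groups overlapped (log2 -0.09, SE 0.20, adjusted p = 0.726). GLC8 (0.12, SE 0.15), a regulator of Glc7, and PIG1 (0.23, SE 0.12), a putative Glc7 subunit, were not called either, and PIG1 was without the sample at 438.58 degrees (0.32, adjusted p = 0.0463). With the values as deposited 15 of the 25 storage genes were called as higher and 0 as lower. GLC3, the branching enzyme, GLG2, TPS3, NTH1 and UGP1 were among those not called there.

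The core enzymes of fatty acid oxidation were among the genes with the largest rises. POX1, the acyl-CoA oxidase of the first step, had signals of 422, 729.5 and 1680.3 in the earlier samples, 7046 in the sample between, and 12109.7, 12714 and 17848 in the later samples. FOX2, the multifunctional enzyme of the next steps, had 462, 618 and 1035, then 4865, then 12390.3, 15362 and 19918. POT1, the thiolase that releases acetyl-CoA, had 190.0, 298 and 544, then 1651, then 4787, 7758 and 11043. In all 3 genes each sample was higher than the one before it, so the spread within a group is largely this climb. The differences were 4.12 (SE 0.47, adjusted p = 0.00113) for POX1, 4.55 (SE 0.31, adjusted p = 0.000539) for FOX2 and 4.57 (SE 0.44, adjusted p = 0.0011) for POT1, which are 17.4-fold, 23.4-fold and 23.7-fold.

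CTA1, the peroxisomal catalase, had signals of 446, 521 and 989 in the earlier samples, 3375 between, and 8572, 13472 and 18316 in the later samples, a 20.9-fold difference (log2 4.39, SE 0.37, adjusted p = 0.000945). IDP3, the peroxisomal isocitrate dehydrogenase that supplies NADPH for unsaturated fatty acids, had 268, 354 and 525, then 1826, then 5329.8, 7551 and 8691, which is 19.2-fold (log2 4.26, SE 0.28, adjusted p = 0.000527). In both genes the gap between the groups exceeded the spread within either group on the log2 scale.

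Auxiliary enzymes for unsaturated chains moved with the core. ECI1 and DCI1, enoyl-CoA isomerase and its close relative, differed 10.3-fold and 13.1-fold, and SPS19, 2,4-dienoyl-CoA reductase, 6.4-fold. DCI1 had signals of 288, 282 and 324 in the earlier and 2562, 4512 and 5065 in the later samples, and its highest sample before 360 degrees had 1783. TES1, a peroxisomal thioesterase, differed 4.45-fold and LPX1, a peroxisomal lipase, 2.6-fold.

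Other members of the list bring fatty acids in and activate them. PXA1 and PXA2, which together form the transporter that carries acyl-CoA into the peroxisome, had 634, 875 and 1362, and 322, 489 and 832 in the earlier samples. In the later samples they had 9478, 10804 and 12969.5, and 6424, 6899.8 and 7558, which are differences of 12.1-fold and 13.7-fold. FAA2, the acyl-CoA synthetase of the peroxisome, differed 15.4-fold, against 2.8-fold for FAA1 and 1.89-fold for FAA4, the acyl-CoA synthetases that act outside it. FAA1 had signals of 4554 to 5245 in the earlier samples and had not dropped below 3037 at 362.04 to 400.31 degrees, whereas FAA2 had 545, 661 and 1025 and had dropped to 383.

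FAT1, an acyl-CoA synthetase for very long chains that also acts in uptake, had signals of 3088, 2466 and 2179 in the earlier and 2237, 2803 and 2519.7 in the later samples and was not called (log2 -0.02, SE 0.15, adjusted p = 0.901). ANT1, the peroxisomal ATP carrier, was not called either (0.11, SE 0.11, adjusted p = 0.4). The later samples of ANT1 overlapped with its samples before 360 degrees, at 3114 to 3761 against 3119 to 3652.

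The carnitine genes, which serve the export of acetyl units, took several courses. CAT2, the carnitine acetyltransferase of peroxisomes and mitochondria, had signals of 1279, 2956 and 6514 in the earlier samples, 10402 between, and 15578, 19094 and 23172 in the later samples (log2 2.71, SE 0.54, adjusted p = 0.00564). CRC1, the mitochondrial carnitine carrier, had 1955, 3419.8 and 6030.4, then its highest value of 7198 in the sample between, then 6717, 4512 and 3219.8. Its groups overlapped and it was not called (0.42, SE 0.44, adjusted p = 0.424). YAT2, an acetyltransferase outside the peroxisome, was highest at 438.58 degrees with 15486 and was not called (0.44, SE 0.19, adjusted p = 0.079), though it was without the sample at 423.27 degrees (0.61, adjusted p = 0.016). Its relative YAT1 was called at 0.54 (SE 0.16, adjusted p = 0.0225). That call was lost without the sample at 407.97, 415.62 or 453.89 degrees, with 0.40 to 0.55 and adjusted p of 0.0517 to 0.0677.

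Peroxins build the organelle in which these enzymes work and import its proteins. Of 27 peroxins and inheritance factors tested, 19 rose and 2 fell, with a median log2 difference of 0.37 that turned to -0.06 with the values as deposited. There 4 rose and 6 fell, and 12 rose without the sample at 415.62 degrees. PEX18, a co-receptor for the import of thiolase, had the largest rise, from 157, 269 and 368 to 955, 973 and 991 (log2 1.96, SE 0.29, adjusted p = 0.00193). PEX21, its paralogue, fell, from 5433, 4522 and 4078 to 1510.5, 911 and 1002 (log2 -2.06, SE 0.21, adjusted p = 0.0011), and its later samples lay below the samples before 360 degrees, at 2187 to 3334.

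PEX5, the main receptor for peroxisomal matrix proteins, had signals of 1890.5, 1992 and 1920.0 in the earlier samples, 2662 between and 3623, 4291 and 4098 in the later samples, which is 2.06-fold (log2 1.05, SE 0.10, adjusted p = 0.0011). PEX32, of the endoplasmic reticulum, differed by 1.06 (SE 0.10, adjusted p = 0.0011) and PEX11, which acts in division of the peroxisome, by 0.98 (SE 0.18, adjusted p = 0.00435). PEX11 had 9811, 12029.5 and 15981 in the later samples, within the 9496 to 13062 of the samples before 360 degrees except for the last. PEX31 fell by 0.51 (SE 0.12, adjusted p = 0.012), and was not called without the sample at 446.24 degrees (-0.45, adjusted p = 0.0511).

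Of 21 genes for the use of acetate, the glyoxylate cycle and gluconeogenesis, 10 rose and 3 fell, where 32.4% of all probe sets rose and 28.3% fell. The median log2 difference was 0.30, and -0.13 with the values as deposited, where 5 rose and 6 fell. With quantile normalization 5 rose, as with the array number of the label as a linear term. Without the sample at 407.97, 415.62 or 446.24 degrees 5 rose, and without that at 453.89 degrees 6 did. CIT3, a mitochondrial citrate and methylcitrate synthase, had signals of 412, 971 and 2272 in the earlier samples, 6066 between, and 10923, 14065 and 17889.8 in the later samples (log2 3.85, SE 0.57, adjusted p = 0.00203). ICL2, the mitochondrial methylisocitrate lyase that follows it in the pathway of propionate, went from 1726, 3265 and 5538 to 14179, 16141 and 18598 (log2 2.36, SE 0.39, adjusted p = 0.00281).

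ADY2, an acetate transporter, had 969.9, 1689.6 and 4923 in the earlier and 14461, 15901 and 20176 in the later samples, an 8.32-fold difference (log2 3.06, SE 0.54, adjusted p = 0.0037). ADH2, the alcohol dehydrogenase that oxidizes ethanol, had 3125, 3037 and 4596, then 12674 in the sample between, then 16457, 17414 and 22854 (log2 2.41, SE 0.20, adjusted p = 0.000928). The sample between the groups lay 76.7% of the way from the earlier to the later mean of ADH2 on the log2 scale, the largest such share among the called members of its list. ACS1, acetyl-CoA synthetase, went from 4416, 7211 and 10416 to 15174, 15225 and 20601 (log2 1.28, SE 0.31, adjusted p = 0.0111).

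**Figure D3:**
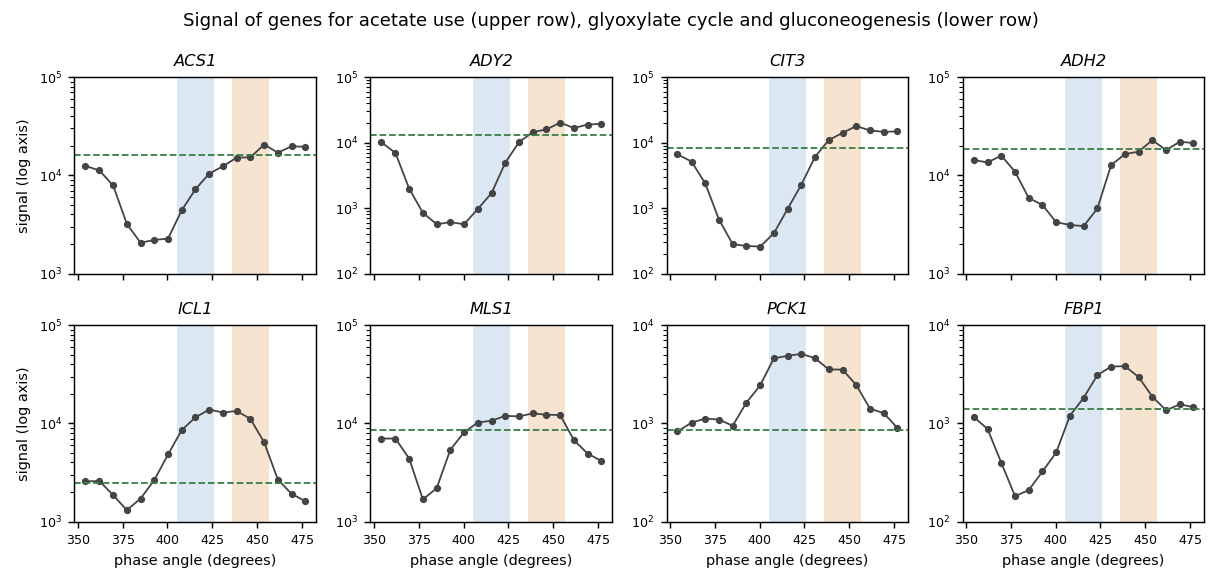
Signal on a log axis, whose range differs between panels, against phase angle in degrees for 4 genes of acetate and ethanol use (upper row) and 4 genes of the glyoxylate cycle and gluconeogenesis (lower row), with shading and dashed line as for the storage and fatty acid oxidation genes. Genes of the upper row rise to a plateau, and ICL1, PCK1 and FBP1 peak between 423.27 and 438.58 degrees and fall back.

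ICL1, isocitrate lyase of the glyoxylate cycle, had signals of 8555, 11546 and 13817 in the earlier samples, 12908 between, and 13374, 11128 and 6427 in the later samples. The groups overlapped (log2 -0.17, SE 0.30, adjusted p = 0.64), and at 461.55 to 476.85 degrees it had 2680.4, 1916 and 1615. Its later samples stood 4.05-fold above the samples before 360 degrees (log2 2.02, adjusted p = 1.83e-06). MLS1, malate synthase of the same cycle, had 10209 to 11928 and then 12169 to 12648, without overlap, and was not called (0.18, SE 0.09, adjusted p = 0.132). It had 6746, 4931 and 4149 in the 3 samples after the later group.

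PCK1, phosphoenolpyruvate carboxykinase, the enzyme that commits carbon to gluconeogenesis, had signals of 4598, 4876 and 5107 in the earlier samples, 4612 between, and 3538, 3533 and 2462 in the later samples. It fell by 0.63 (SE 0.16, adjusted p = 0.013), while its later samples were still 3.59-fold above the samples before 360 degrees, which had 787 to 966. FBP1, fructose-1,6-bisphosphatase, had 1197, 1822 and 3103, then 3787, then 3833, 2969 and 1878, so its groups overlapped (0.55, SE 0.39, adjusted p = 0.253). The call of PCK1 was lost when both groups were widened to 4 samples.

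Among the rises, 5 were small: JEN1, a lactate transporter, at 0.41, MDH2, the cytosolic malate dehydrogenase, at 0.37, ACH1, an acetyl-CoA hydrolase, at 0.35, ALD6, an acetaldehyde dehydrogenase, at 0.30 and PYC1, a pyruvate carboxylase, at 0.27. Each of these was below 0 with the values as deposited and was not called without the sample at 407.97, 415.62 or 446.24 degrees (adjusted p of 0.0606 to 0.159). CIT2 (0.04, SE 0.10), a peroxisomal citrate synthase, PYC2 (-0.09, SE 0.08), IDP2 (0.20, SE 0.12), a cytosolic isocitrate dehydrogenase, and SFC1 (-0.27, SE 0.25), a succinate carrier, were not called. ALD4 (0.55, SE 0.26), a mitochondrial aldehyde dehydrogenase, was called without the sample at 423.27 degrees alone (0.78, adjusted p = 0.0318).

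The other members of the list that fell were MAE1, the mitochondrial malic enzyme, and DAL7, a malate synthase of allantoin use. MAE1 had 4744, 3931 and 2876 in the earlier and 1353, 1090.1 and 1214 in the later samples (log2 -1.64, SE 0.19, adjusted p = 0.00116). DAL7 differed by -1.16 (SE 0.24, adjusted p = 0.00609). Both had been highest at 362.04 to 400.31 degrees, MAE1 with 17149.5 at 377.35 degrees and DAL7 with 6256 at 369.7 degrees.

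Of 14 genes that store fat as triacylglycerol and sterol ester, or release it, 6 rose and 2 fell. Over all probe sets 32.4% rose and 28.3% fell. The list median was 0.28, and -0.15 with the values as deposited, where 1 rose and 4 fell. PAH1, the phosphatidate phosphatase that makes diacylglycerol, had signals of 769.5, 906 and 1021 in the earlier and 1765, 1963 and 1832 in the later samples (log2 1.05, SE 0.12, adjusted p = 0.00116). LDH1, a lipid droplet hydrolase, rose by 0.68, ARE2, a sterol acyltransferase, by 0.62 and TGL1, a sterol ester hydrolase, by 0.59. These 3 calls were lost with the values as deposited.

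The triacylglycerol lipases TGL3, TGL4 and TGL5 were not called, with 0.25 (SE 0.09), 0.20 (SE 0.13) and -0.13 (SE 0.09), and TGL4 alone of these was called without the sample at 438.58 degrees (0.32, adjusted p = 0.0424). YEH1, a sterol ester hydrolase, had 2625, 2078 and 1495 in the earlier samples, 837 between and 469.7, 438 and 633 in the later samples, a difference of -1.99 (SE 0.23, adjusted p = 0.00116). Its relative YEH2 differed by -0.66 (SE 0.10, adjusted p = 0.00247). YEH1 thus moved against TGL1, the third hydrolase for sterol esters, and was 0.215 of its level before 360 degrees.

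Regulators of these pathways came next. Of 24 genes for transcription factors and kinases of fatty acid oxidation, gluconeogenesis and stress, 18 rose and 0 fell, with a median log2 difference of 0.50 that was 0.07 with the values as deposited, where 7 rose and 1 fell. At an unadjusted p under 0.05, 18 were higher and 0 lower. PIP2, a subunit of the factor that binds oleate response elements, had signals of 839, 1047 and 1110.4 in the earlier samples, 1926 between, and 2915, 3305 and 3459.6 in the later samples (log2 1.70, SE 0.13, adjusted p = 0.000848). OAF1, its partner, had 1417, 1288 and 1534, then 1502, then 1481, 1320.4 and 1572. Its groups overlapped (0.04, SE 0.11, adjusted p = 0.741).

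ADR1, the activator of glucose-repressed genes, had signals of 4695, 6083 and 6959.5 in the earlier samples, 8539 between, and 8728, 8237 and 8165 in the later samples. It was called at 0.52 (SE 0.15, adjusted p = 0.0225), and this call was lost without the sample at 415.62, 438.58, 446.24 or 453.89 degrees, with 0.49 to 0.55 and adjusted p of 0.0503 to 0.0626. Its earlier samples were already 12.6-fold above the lowest at 362.04 to 400.31 degrees. CAT8, the activator of gluconeogenic genes, had 2812, 3018 and 2708 and then 3349, 3314 and 2973 and was not called (0.17, SE 0.09, adjusted p = 0.148). HAP4, of the respiratory activator complex, was not called either (0.07, SE 0.09, adjusted p = 0.525). For these genes the same factor was 14.9 and 5.66.

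**Figure D4:**
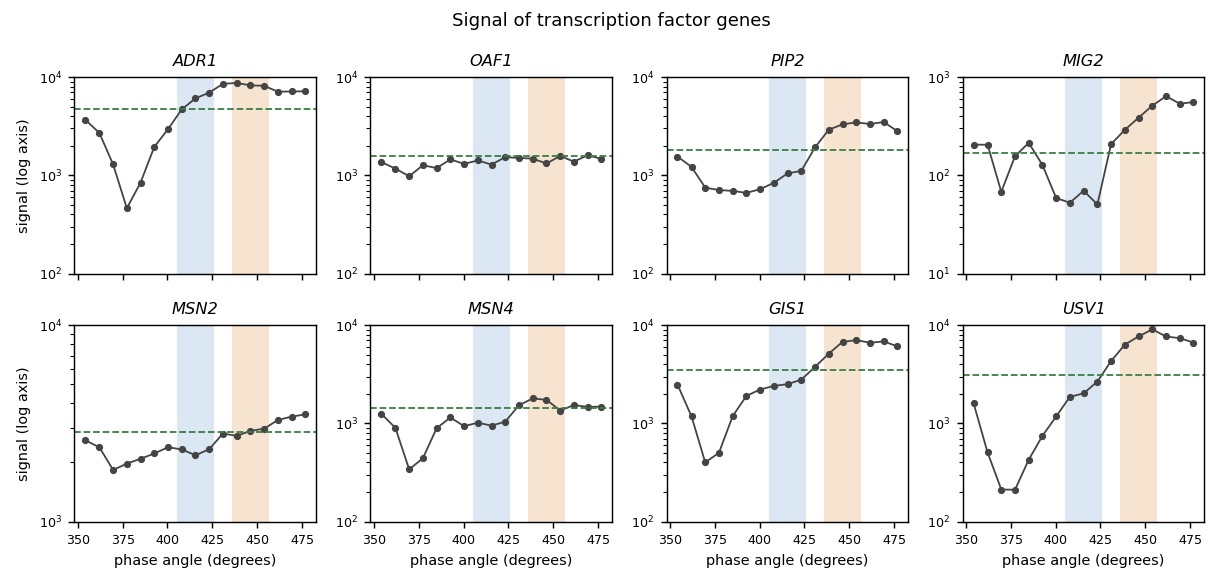
Signal on a log axis, whose range differs between panels, against phase angle in degrees for 8 transcription factor genes, with shading and dashed line as for the storage and fatty acid oxidation genes. ADR1 is near its plateau before the later samples, OAF1 changes little, and PIP2, MIG2, GIS1 and USV1 climb between the groups.

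Among the stress regulators, MSN2 had signals of 2329.9, 2177 and 2335 in the earlier and 2732, 2896 and 2972 in the later samples, a difference of 0.33 (SE 0.09, adjusted p = 0.0149) that was -0.10 with the values as deposited. It was not called without the sample at 415.62 (adjusted p = 0.0688) or 446.24 degrees (0.0585). MSN4 had 1016, 948 and 1042 and then 1794, 1739 and 1350.2 (0.69, SE 0.13, adjusted p = 0.00447). USV1, a zinc finger factor for growth without fermentable sugar, differed by 1.82 (SE 0.18, adjusted p = 0.0011), XBP1, a stress-induced repressor, by 1.77 (SE 0.20, adjusted p = 0.0011) and GIS1, a factor of stationary phase, by 1.28 (SE 0.14, adjusted p = 0.00111). USV1 had 6341, 7678 and 9060.4 in the later samples, all above its highest sample before 360 degrees at 3600.3.

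Repressors that act when glucose is present rose too. MIG2 had signals of 52.6, 69.7 and 50.5 in the earlier samples, 208 between, and 290.2, 386 and 512 in the later samples, which is 6.77-fold at a low level (log2 2.76, SE 0.23, adjusted p = 0.000928). MIG1 had 1178, 1158 and 1365 and then 2849.7, 2835 and 2949, a 2.34-fold difference, and MIG3 was not called, with 87.6, 98.2 and 94 and then 87.6, 83.1 and 111. The glucose-sensing and transport list had 14 of 19 genes that rose and 0 that fell, where with the values as deposited 8 rose and 3 fell. Among them were HXT10 at 2.04 (SE 0.32, adjusted p = 0.00228) and HXT8 at 1.92 (SE 0.21, adjusted p = 0.0011), both transporters of low signal here. Probe sets of near-identical hexose transporters, alcohol dehydrogenases and histones may share transcripts, which the files do not resolve.

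Of 36 stress genes, 34 rose and 1 fell, with a median log2 difference of 1.36. TKL2, a transketolase isoform, had signals of 322, 487 and 814 in the earlier samples, 1552 between, and 4806, 8409 and 12128 in the later samples (log2 3.97, SE 0.43, adjusted p = 0.0011). FMP45, a membrane protein of the Sur7 family, had 518, 791 and 1448 and then 7744, 9629 and 11715 (3.51, SE 0.36, adjusted p = 0.0011). Of the redox genes beside CTA1, TSA2, a peroxiredoxin, differed by 2.86 (SE 0.31, adjusted p = 0.0011). Of 30 redox genes 18 rose and 5 fell, and with the values as deposited 8 rose and 7 fell.

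Heat shock genes rose in 18 of 27 cases and fell in 2, and without the sample at 407.97, 415.62 or 446.24 degrees 10, 7 and 9 rose. With the values as deposited 5 rose and 2 fell. SSA3, an Hsp70, rose later than HSP30. Its signals were 1532, 1477 and 1573 in the earlier samples, 1451 in the sample between, and 2694, 7486 and 13917 in the later samples (log2 2.10, SE 0.54, adjusted p = 0.0141). It was not called without the sample at 446.24 degrees (2.00, adjusted p = 0.0507) and reached 18764 at 469.2 degrees. HSP30, a plasma membrane protein, had 1379.5, 1645 and 1752, then 1982, then 4394, 8671 and 12986 (2.32, SE 0.37, adjusted p = 0.00243). Autophagy genes rose in 26 of 33 cases and fell in 1, and with the values as deposited 8 rose and 4 fell. They were led by ATG34 at 1.62 (SE 0.21) and ATG39 at 1.32 (SE 0.17), both receptors for selective cargo.

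Over all tested genes the largest rise was that of SPG1, needed for survival in stationary phase at high temperature. It had signals of 264, 362 and 566 in the earlier samples, 2388 between, and 9398, 12940.2 and 16300.3 in the later samples, which is 33.2-fold (log2 5.05, SE 0.31, adjusted p = 0.000527). Of the 8 largest rises, 5 were fatty acid oxidation genes: POT1, FOX2, CTA1, IDP3 and POX1. FAT3, a protein of fatty acid uptake, had 328, 497 and 1196, then 3974, then 8936, 11891 and 16072 (4.37, SE 0.47, adjusted p = 0.0011). FDH1, formate dehydrogenase, had 587, 427 and 489, then 1364, then 5584, 9414 and 15295 (4.23, SE 0.35, adjusted p = 0.000928), and it was still rising at 476.85 degrees with 21452.

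The steepest falls were in genes for making ribosomes. Of 116 ribosome biogenesis genes, 114 fell and 0 rose, with a median log2 difference of -2.30. At an unadjusted p under 0.05, 115 were lower and 1 was higher. NOP13, a nucleolar protein, had signals of 2646, 1892 and 994 in the earlier samples, 502 between, and 224, 152 and 108 in the later samples (log2 -3.47, SE 0.40, adjusted p = 0.00116). UTP13, of the small-subunit processome, differed by -3.45 (SE 0.35), PWP1 by -3.40 (SE 0.29), NOG1, a GTPase of large-subunit assembly, by -3.35 (SE 0.33), KRE33, an RNA cytidine acetyltransferase, by -3.33 (SE 0.37) and DBP3, an RNA helicase, by -3.28 (SE 0.36). The largest fall was that of HO, the mating-type endonuclease gene, from 5526, 4872 and 3636 to 402, 282 and 329 (log2 -3.79, SE 0.19, adjusted p = 0.000527). BAP3, an amino acid permease, differed by -3.20 (SE 0.37).

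Other growth lists fell by less. Genes of RNA polymerases I and III fell in 22 of 27 cases and rose in 1, with RPA49 at -3.18 (SE 0.40) and RPA12 at -3.0 (SE 0.38). Sulfur assimilation genes fell in 23 of 30 cases and rose in 0, with MET8 at -2.93 (SE 0.30) and the sulfate permease SUL2 at -2.78 (SE 0.19). Amino acid synthesis genes fell in 48 of 62 cases and rose in 5, with the aspartate kinase HOM3 at -2.76 (SE 0.18) and, in the other direction, ARO9, an aminotransferase of aromatic amino acid breakdown, at 3.30 (SE 0.69). ARO9 had 312, 924 and 2628 in the earlier and 7813, 8750.3 and 10577 in the later samples.

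Purine and pyrimidine genes fell in 26 of 33 cases and rose in 3, with the CTP synthase URA7 at -3.12 (SE 0.37) and the adenine deaminase AAH1 at -3.11 (SE 0.32). Cytosolic ribosomal protein genes fell in 79 of 127 cases and rose in 0, by a median of -0.36, with RPS26B at -1.98 (SE 0.30) and RPL13A at -1.71 (SE 0.23). With quantile normalization 113 ribosomal protein genes fell.

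The next lists had small differences that moved with the scaling or with single samples. Mitochondrial ribosome genes rose in 39 of 72 cases and fell in 0, with a median of 0.40 that was -0.03 with the values as deposited and 21, 17 and 22 rises without the sample at 415.62, 446.24 or 453.89 degrees. Named among them were MRPL6 at 0.91 (SE 0.19) and MRPL23 at 0.89 (SE 0.18). Proteasome genes rose in 17 of 35 cases (median 0.34, as deposited -0.09) and in 4 to 9 without any single sample but that at 438.58 degrees. RPN4, the transcription factor of proteasome genes, differed by 0.95 (SE 0.17) and the subunit gene RPN1 by 0.53 (SE 0.11).

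Respiratory chain and ATP synthase genes rose in 9 of 39 cases (median 0.27, as deposited -0.16), in 4 or 5 without the sample at 407.97, 415.62, 423.27 or 446.24 degrees and in 19 without that at 438.58 degrees. NDE2, an external NADH dehydrogenase, differed by 2.14 (SE 0.36) and CYC7, the cytochrome c isoform 2, by 1.73 (SE 0.19). Tricarboxylic acid cycle genes rose in 6 of 17 cases and fell in 1 (median 0.26, as deposited -0.17). They rose in 2 cases without any single sample but that at 438.58 degrees. The succinyl-CoA ligase genes LSC2 and LSC1 differed by 1.00 (SE 0.16) and 0.60 (SE 0.15). Over all probe sets 32.4% rose, a share above that of the respiratory list and near that of the tricarboxylic acid cycle list. Glycolytic genes rose in 15 of 23 cases and fell in 1, with a median of 0.44 that was 0.01 as deposited, and 5, 3 and 9 rose without the sample at 407.97, 415.62 or 446.24 degrees. PDC6, a pyruvate decarboxylase isoform, differed by 1.23 (SE 0.16) and HXK2, the main hexokinase, by -0.87 (SE 0.19).

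Cell division genes moved between the groups as well, beside shares over all probe sets of 32.4% that rose and 28.3% that fell. G1/S genes fell in 40 of 57 cases and rose in 3, with the cohesin MCD1 at -1.90 (SE 0.19) and RSR1, a GTPase of bud site selection, at -1.70 (SE 0.21). G2/M genes rose in 11 of 23 cases and fell in 2 (median 0.31, as deposited -0.11 with 3 rises and 7 falls), and rose in 6 without the sample at 446.24 degrees, with ALK1, a haspin-like kinase, at 1.15 (SE 0.19) and SWI5, a factor of late mitosis, at 1.14 (SE 0.19). Histone genes rose in 5 of 7 cases (median 0.44, as deposited 0.01), with HHT2 at 0.50 (SE 0.13) and HTB1 at 0.44 (SE 0.16), and in 1 to 3 without any single sample but that at 438.58 degrees. The call of HTB1 (adjusted p = 0.0492) was lost without any one of the 6 samples (adjusted p of 0.0597 to 0.131). M/G1 genes rose in 4 of 26 cases and fell in 7, where 32.4% of all probe sets rose and 28.3% fell. Their median was -0.08, and with quantile normalization 0.05. With the values as deposited 2 rose and 13 fell (median -0.51), and 2 rose without the sample at 415.62, 423.27, 446.24 or 453.89 degrees, with the helicase subunits MCM7 at -1.49 (SE 0.19) and MCM6 at -1.29 (SE 0.19).

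Genes of fatty acid synthesis, the opposite pathway to fatty acid oxidation, and of sterol synthesis were taken as 1 list. They rose in 11 of 34 cases and fell in 11. Shares over all probe sets were 32.4% and 28.3%, so these counts were near the background. The list median was -0.02. With the values as deposited 1 rose and 15 fell (median -0.45), and with quantile normalization 5 rose and 17 fell (median -0.20). Without the sample at 407.97, 415.62, 446.24 or 453.89 degrees 3 to 5 rose, and without any of the first 3 of these 6 fell. ELO3, an elongase of very long chains, had signals of 8792, 7285 and 6240.3 in the earlier and 3216, 2699 and 2952 in the later samples (log2 -1.32, SE 0.14, adjusted p = 0.0011). ERG3, a sterol desaturase, differed by -1.22 (SE 0.16, adjusted p = 0.00151).

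The later samples were next set against the 7 samples before 360 degrees, which asks how far the return had gone. The comparison uses the same 3 later samples, so its values are not independent of the first. Of all probe sets 33.4% were higher and 30.2% lower, and with the values as deposited the share of higher calls was 41.3% instead of 52.5%, and 58.4% with quantile normalization. Of the 22 fatty acid oxidation genes 15 were higher and 0 lower, with a median of 1.51-fold, and of the storage genes 5 of 7 for trehalose and 13 of 18 for glycogen were higher and 1 glycogen gene, PIG1, was lower. Medians were 1.58-fold for both. The last sample before 360 degrees, at 354.23 degrees, was already lower than the mean of the 7 in these lists, with -0.46, -0.45 and -0.25 on the log2 scale for trehalose, glycogen and fatty acid oxidation.

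Within fatty acid oxidation the genes differed in how far they passed their former level. FOX2 (1.26-fold, adjusted p = 0.0609), POT1 (1.26-fold, 0.156) and CTA1 (1.29-fold, 0.124) were not called as higher, and POX1 was at 1.3-fold (0.0239). DCI1 stood 2.46-fold above its former level (adjusted p = 7.51e-05), IDP3 2.02-fold (0.000141), LPX1 2.01-fold (0.00013), CAT2 1.99-fold (5.66e-05) and FAA2 1.92-fold (6.43e-05). CRC1, which was not called between the groups, stood 2.95-fold above (7.45e-06). The difference between the core enzymes and these genes was not tested.

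Ribosome biogenesis genes were lower than before 360 degrees in 115 of 116 cases, at a median ratio of 0.133. Among the 36 stress genes, 8 stood above their level before 360 degrees and 3 below it (median ratio 1.2). Over all probe sets 33.4% were higher and 30.2% lower, so both shares of the stress list were below the background. Of the 72 mitochondrial ribosome genes, 71 stood above their former level (median ratio 2.69). The mean of the later samples was 0.615 of the former level for FDH1 (adjusted p = 0.0229) and 0.379 for SSA3 (adjusted p = 0.00606). Both genes climbed through the later samples. FDH1 had 5584, 9414 and 15295 there, and the last of these lay within the 11711 to 17088 of its samples before 360 degrees.

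The sample between the groups shows how the step was divided. Over the probe sets that rose, it lay at a median of 46% of the way from the earlier to the later mean on the log2 scale, with quartiles of 30.1% and 64.4%, and over those that fell at 53.3%. For trehalose, glycogen and fatty acid oxidation genes the medians were 46.9%, 39.5% and 52.8%. POX1, at 76%, ADY2, at 76.5%, and CIT3, at 68.7%, were further on, and SSA3, at -3.5%, and HSP30, at 13.9%, were close to their earlier mean. These are values of a single sample.

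Markers of cell type and of RNA quality were read in the same samples. The a-specific genes, which cells of this mating type express, had a summed signal of 42420.7 to 50906.0 in the earlier and 31179.3 to 37488.4 in the later samples. Of 7, 5 fell, among them STE6 at -0.96 (SE 0.22) and BAR1 at -0.92 (SE 0.26), and 3 fell without the sample at 407.97 or 446.24 degrees. BAR1 was not called without either of these (adjusted p = 0.0596 and 0.0515). The 5 alpha-specific genes summed to 2809.4 to 3222.1 and 2636.0 to 2758.2, with MF(ALPHA)1 at -1.71 (SE 0.30), SAG1 at 0.32 (SE 0.11; as deposited -0.11) and the other 3 not called. Leaving out any sample other than that at 438.58 degrees ended the call of SAG1 (adjusted p of 0.0512 to 0.151).

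Of 35 meiosis and sporulation genes 19 rose and 4 fell (2 without the sample at 415.62 degrees), with 9 rises and 9 falls in the values as deposited, and their summed signal went from 6706.4 to 7786.5 up to 10614.6 to 12631.4. DMC1, a meiotic recombinase, had 136, 112 and 100.4 and then 324, 457 and 514 (1.88, SE 0.20), and SPO19 fell from 14.3, 84.8 and 43.6 to 6.3, 2.4 and 9.4 (-2.85, SE 0.74), near the level of probe sets for another species, and was not called with groups of 4 samples. The part of such markers in the results was not tested. Fewer cells with a transcript and less of it per cell cannot be told apart in these bulk samples.

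Of 10 reference genes, 3 rose and 0 fell, where 32.4% of all probe sets rose and 28.3% fell. Without the sample at 415.62 or 438.58 degrees 1 and 5 of the 10 rose. Their median of 0.25 was -0.18 with the values as deposited. At an unadjusted p under 0.05, 5 were higher and 0 lower. TUB2, tubulin, differed by 0.46 (SE 0.11) and PDA1, of pyruvate dehydrogenase, by 0.53 (SE 0.14; adjusted p = 0.0514 without the sample at 415.62 degrees). For SPT15, the 3′ signal over the 5′ signal, a measure of RNA quality, was on the log2 scale 1.20 to 1.25 in the earlier and 0.929 to 1.045 in the later samples, that of TDH1 0.122 to 0.352 and -0.005 to 0.116, and that of ACT1 0.157 to 0.214 and 0.096 to 0.166. For RIP1 the ranges overlapped. Hybridization controls averaged 11.15 to 11.29 and 10.94 to 11.25 on the log2 scale as deposited, and 10.80 to 10.84 and 10.94 to 11.24 after scaling. The part of RNA quality and of array brightness in the results was not tested.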

How the data were processed

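Total RNA was amplified with oligo(dT) primers, labelled with biotin and hybridized to 1 array per sample, per the labels' protocols. The authors deposited 1 linear intensity per probe set and array, computed in GCOS according to the submitters' processing notes. The settings of GCOS, its version and the genome build were not given in the sources used here. Of 10928 probe sets, 5498 have 1 S. cerevisiae gene in the platform annotation (5449 genes), 1746 a gene of another yeast species or none matched, 1 several and 3470 none, besides 213 controls. Symbols of 12 were updated through a RefSeq gene table. Probes follow a reference sequence, so differences of strain CEN.PK can lower a signal.

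Each array was scaled so that its median over the 5498 probe sets was 1891 and signals below 1 were raised to 1 before the log2 transform. Probe sets with a 49-sample median above 11.3, the 75th percentile of the other-species probe sets, were kept (5469), and 29 were removed. Where a gene had several, the one with the highest mean signal is given. limma 3.58.1 in R 4.3.3 (lmFit, eBayes) tested later against earlier samples and later samples against those before 360 degrees, with Benjamini-Hochberg adjustment over all 5469. The number of arrays limits the precision. The fits were run on simulated data with independent noise. Those data lack the trend between successive samples, so they do not show how the fits perform under it. Alternatives were values as deposited, quantile normalization, an offset of 50, other filters, an intensity trend, single samples left out, groups of 4, a common slope within groups and the array number of the label as a linear term.

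The genes named are, by rule, the 4 called with the largest rise and 2 with the largest fall in each of 7 main lists, the 2 with the largest absolute difference in each other list, the 8 largest rises and falls of all, and 17 genes given whatever they did. Other members of the main lists are named to account for the list. The members and the lists were chosen with earlier results of these data known, and counts of a list are descriptions without a test of the list. Tables and figures were made in Python 3.11.15 with pandas 2.3.3, numpy 2.4.6 and matplotlib 3.10.9.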

Additional observations from a re-analysis of the deposited data

Results flagged for a closer look

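Among the 102 genes named by rule, 6 had a sample that stood far from the others in the group of 7 samples before 360 degrees. For independent samples chance would give about 1 such gene in 20. These 7 samples are successive and the rate was not determined for them, so whether the 6 genes are an excess cannot be said. RPA12 had 2842.8, RSR1 2136.4, URA7 3857.0 and UTP13 3050.1 at 354.23 degrees, the last sample of the group, where the group medians were 1676.2, 1071.1, 2105.6 and 1837.2. ICL1 had 2041.0 at 307.04 degrees, the first sample, against a median of 2454.8. HHT2 had 6526.4 at 346.37 degrees against a median of 8007.6.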

How the results depend on the processing

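Successive samples of 1 culture and 3 samples a group limit the comparison, as do brighter arrays in the earlier group. With the values as deposited 459 probe sets rose instead of 1771 between the groups, and 917 instead of 1827 were higher than before 360 degrees. At a 2-fold minimum 393 rose, 562 fell, and 14 of the 22 storage genes that rose remained. Leaving out single samples gave 1227 to 1783 rises and 1178 to 1501 falls between the groups, 1590 to 1884 higher and 1471 to 1607 lower than before 360 degrees, 21 to 22 storage genes, 17 to 19 fatty acid oxidation genes and 112 to 115 ribosome biogenesis genes. The values as deposited lower every difference between the groups by the same amount (log2 -0.43). By this shift 19 of 158 called genes, with 16 others not called, changed sign, the called ones being ACH1 (-0.08), ALD6 (-0.13), HSF1 (-0.14), INP2 (-0.092), JEN1 (-0.023), MDH2 (-0.058), MSN2 (-0.10), PCL10 (-0.068), PCL8 (-0.039), PEX10 (-0.073), PEX27 (-0.10), PEX30 (-0.012), PEX6 (-0.056), PEX7 (-0.091), PEX8 (-0.056), PYC1 (-0.16), RDS2 (-0.03), REG1 (-0.058) and SAG1 (-0.11). With quantile normalization PYC1 did (-0.094), and against the samples before 360 degrees HXT10 (0.40), LRO1 (0.14) and PEX31 (0.12). Of the 158 genes called, 54 lost their call with the values as deposited, 12 with quantile normalization, 20 with the array number as a term and 3 with groups of 4. The causes were not tested beyond this shift. No paired analysis was possible because the labels give successive samples and no replicate numbers shared by the groups.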
